A study of Mus musculus with 59 samples.

Results

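RNA of 40 genes that control autophagy and the lysosome was described in cloned mouse embryos. These were built by somatic cell nuclear transfer, or SCNT, which puts the nucleus of a body cell into an oocyte that has lost its own. The 40 genes were taken by symbol from a list of the core autophagy machinery and of lysosomal genes, a rule that uses no measured value although earlier results of these data were known when it was set, and all 40 were found among the 24421 genes of the authors' expression table. The set held 5 genes of the ULK complex, 6 of the class III PI3-kinase complex, 5 of membrane supply and lipid binding, 10 of the conjugation systems, 5 ATG8 proteins, 3 cargo receptors and 6 of the lysosome and its control.

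The series examined the acetylation mark H3K9ac and the activation of 2-cell genes by Dux in SCNT embryos. Of its 59 samples, 24 were libraries of poly(A) RNA, and the values used here stand for 20 of them. Each group had 5 RNA libraries: untreated 1-cell embryos (13 to 14 h from activation), untreated early 2-cell embryos (20 to 21 h), untreated late 2-cell embryos (33 to 34 h) and late 2-cell embryos that had received TSA (also 33 to 34 h). TSA is trichostatin A, which blocks the enzymes that remove acetyl groups from histones. All 4 groups were SCNT embryos with the strain label BDF1, the untreated ones carried the treatment label WT, and polar bodies had been taken off. No genetic change was named for any of these groups, and neither a TSA dose nor the donor cell of the RNA samples was given. Cumulus cells were named as the donor cell elsewhere in the series. The table gave 1 value per gene and group, so no spread between embryos, no error and no test can be given, and every difference below is a description of those values. The depth behind them is unknown.

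Autophagy is the path by which a cell encloses part of its own cytoplasm in a double membrane, the autophagosome, and delivers it to the lysosome for breakdown. A kinase complex starts the process, a lipid kinase marks the membrane, lipid transfer and scrambling proteins let it grow, and enzymes related to those of ubiquitin attach ATG8 proteins to it, where cargo receptors bind. In the mouse, autophagy is known to be switched on soon after fertilization, while maternal proteins and RNA are being replaced by products of the embryo's own genome.

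In the untreated embryos 32 of the 40 genes had their highest value in the late 2-cell column. The summed level of the set was 1212 FPKM (fragments per kilobase of transcript, scaled to the fragments mapped) at the 1-cell stage, 958.3 at the early 2-cell stage, 3676 at the late 2-cell stage and 3695 with TSA. This was 0.24%, 0.185%, 0.703% and 0.721% of the summed FPKM of each column. The median member was at 4.11, 3.4, 16.5 and 16 FPKM in the same order. Most of the larger sum at the late 2-cell stage was made up by the ATG8 proteins, whose sum went from 49.7 to 707 FPKM, by the lysosomal genes, from 48.5 to 1400 FPKM, and by Rb1cc1 and Wipi2. The conjugation enzymes, at 379 and 430 FPKM, and the cargo receptors, at 25.6 and 22 FPKM, were nearly level in sum. Since a column is scaled to its own total, more RNA of a gene per embryo and a larger share of the RNA that remained cannot be told apart, and neither can fewer cells with a transcript and less of it per cell.

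**Figure D1:**
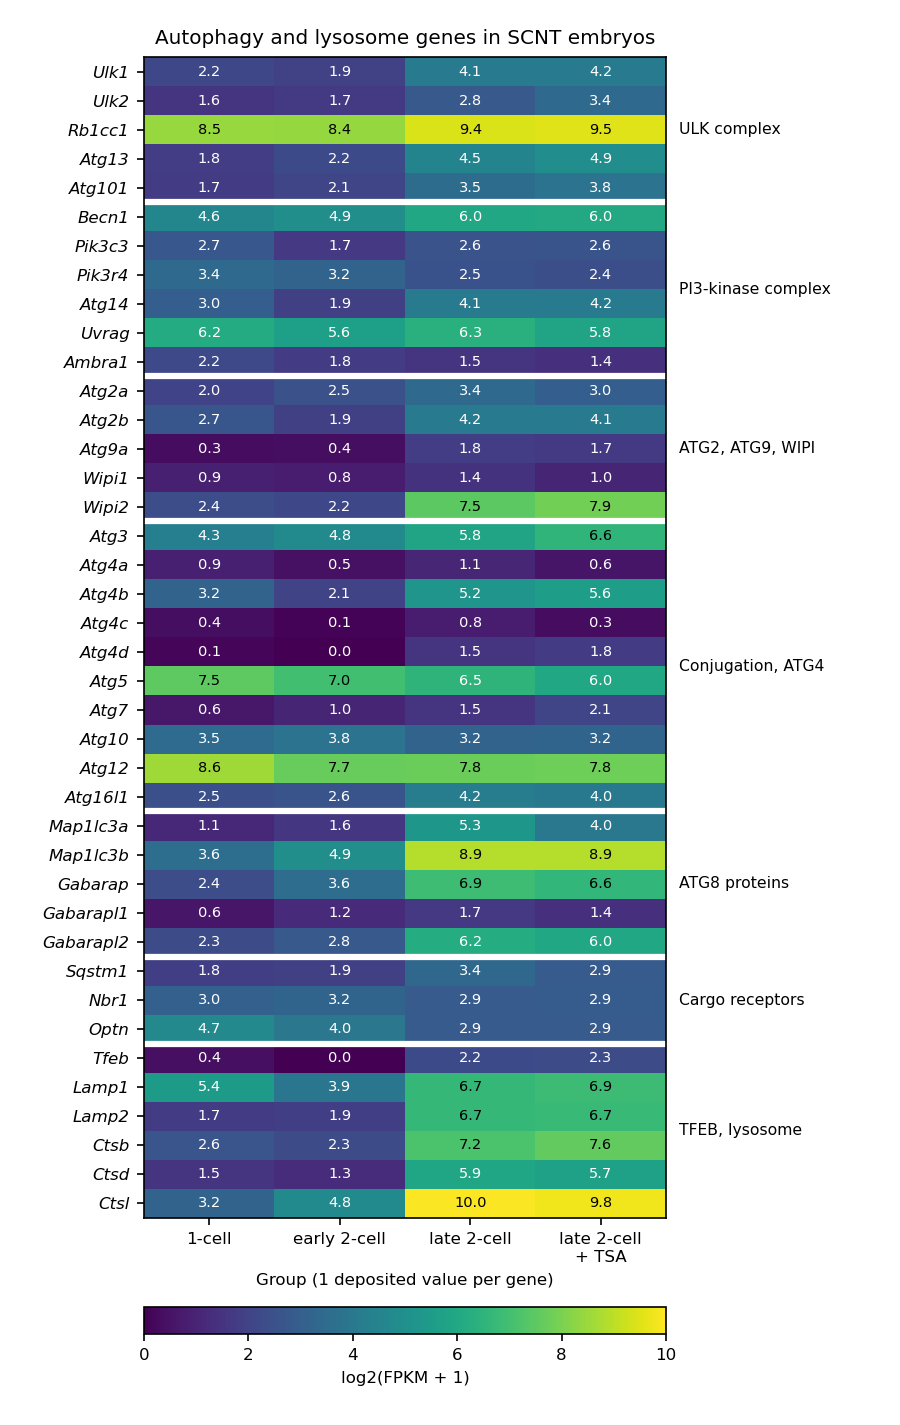
Level of each of the 40 genes (rows, grouped by role) in the 4 groups (columns), as log2(FPKM + 1), with 1 deposited value per cell of the plot and no error. The ATG8 and lysosome rows are brightest in both late 2-cell columns, while Atg5, Atg12 and Optn are brightest at the 1-cell stage.

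Promoter sequence bears on how these genes can be regulated, because TFEB, a member of the set, is known as a transcription factor of lysosomal and autophagy genes that binds E-boxes of the CLEAR type. RefSeq promoters (build GRCm38.p6, 250 bases before to 50 after the start site) were available for 33 of the 40 genes. The palindromic E-box core CACGTG, which reads the same on both strands, was present in 7 of these 33 genes (21.2%), against 2187 of 27025 genes overall (8.09%). The longer form TCACGTGA, which contains the core, was present in Atg3 and Ctsd, 2 of 33 genes (6.06%), against 304 genes overall (1.12%). A gene was counted if any of its RefSeq promoters held the match. The 7 genes with the core were Lamp1, Ctsd, Ctsl, Atg3, Atg14, Atg5 and Atg7. The matches of Atg5, Atg7 and Ctsl lay inside the annotated span of the gene, before a start site within it. The windows below show the matches in capitals, the core or the longer form where it was present, each read 5′ to 3′ on the strand of its gene. They were chosen because they hold the densest run of matches (Lamp1), both 8-base matches (Ctsd, Atg3) and cores near the start site in a gene that was higher (Atg14) and a gene that was lower (Atg5) at the late 2-cell stage.
Lamp1, chr8:13159082-13159169, plus strand: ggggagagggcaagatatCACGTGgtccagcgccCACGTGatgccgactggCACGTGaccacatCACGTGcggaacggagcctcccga
Ctsd, chr7:142387902-142387943, minus strand: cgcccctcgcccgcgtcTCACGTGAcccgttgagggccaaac
Ctsd, chr7:142388049-142388077, minus strand: tccccCACGTGacctgtatccagtcattc
Atg3, chr16:45158717-45158781, plus strand: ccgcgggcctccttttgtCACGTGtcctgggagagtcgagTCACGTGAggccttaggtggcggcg
Atg14, chr14:47568412-47568453, minus strand: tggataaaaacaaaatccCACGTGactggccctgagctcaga
Atg5, chr10:44268307-44268348, plus strand: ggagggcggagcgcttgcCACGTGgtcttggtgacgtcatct

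The 4 cores of Lamp1 began between 61 and 15 bases before its start site. In Ctsd the core of the 8-base match began 98 bases before the start site and the other core 245 bases before it, and in Atg3 the cores began 94 and 71 bases before it. The core of Atg14 began 1 base before the start site and that of Atg5 14 bases before it. A match is a description of letters and says nothing of binding in these embryos.

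From the 1-cell to the early 2-cell stage most of the set was within 2-fold. A gene was kept in a comparison if it had at least 1 FPKM in either column, and it was counted as higher or lower when its log2(FPKM + 1) differed by at least 1, which is 2-fold on that scale. Of the 34 members kept, 3 were at least 2-fold higher (8.82%, against 3.72% of the 10117 genes kept), and 4 were at least 2-fold lower (11.8%, against 7.12%). The median difference was 0.09 for the members and -0.08 for all genes kept. These values depend on the setting. After quantile normalization 1 of 36 members was lower (against 5.23% of all genes kept), and with a pseudocount of 5, 1 of 34 (against 3.3%). The members' median was -0.09 without a filter and -0.23 with a filter of 5 FPKM, against 0.00 and -0.12 for all genes kept. The higher genes were Ctsl, Map1lc3b and Gabarap, and the lower ones Lamp1, Atg4b, Atg14 and Pik3c3. The 6 genes not kept, Atg9a, Wipi1, Atg4a, Atg4c, Atg4d and Tfeb, were under 1 FPKM in both columns, and Atg4d and Tfeb were listed at 0 in the early 2-cell column. This comparison and that of the 2-cell stages share the early 2-cell column, so the values of a gene in both are not independent.

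From the early to the late 2-cell stage 25 of the 39 members kept were at least 2-fold higher (64.1%, against 47.9% of the 12794 genes kept) and 1, Optn, was at least 2-fold lower (2.56%, against 10.9%). The median difference was 1.46 for the members and 0.92 for all genes kept. Most of the table was thus higher in this comparison, and 12215 genes reached 1 FPKM in the late column against 9477 in the early one. Of the members, 5 were kept only through the late column (Atg9a, Wipi1, Atg4a, Atg4d and Tfeb) and so could not have been lower. Among the 34 members with at least 1 FPKM in the early column, 22 were 2-fold higher (64.7%) and 1 lower (2.94%), against 36.3% and 14.8% of the 9477 genes so chosen.

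The size of that difference depends on how the columns are scaled. Scaling them to the median ratio of genes present in all 4 lowered the median of all genes kept from 0.92 to 0.42, and giving them 1 common distribution (quantile normalization) lowered it to -0.14. The share of higher genes among all those counted was 81.4% as deposited, 65.9% after median-ratio scaling and 49.1% after quantile normalization. Under the first of these, 19 of 38 members kept were 2-fold higher (50%, against 36.4% of all genes) and 4 lower (against 18.9%). Under the other, 18 were higher (47.4%, against 26.8%) and 5 lower (against 27.9%).

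**Figure D2:**
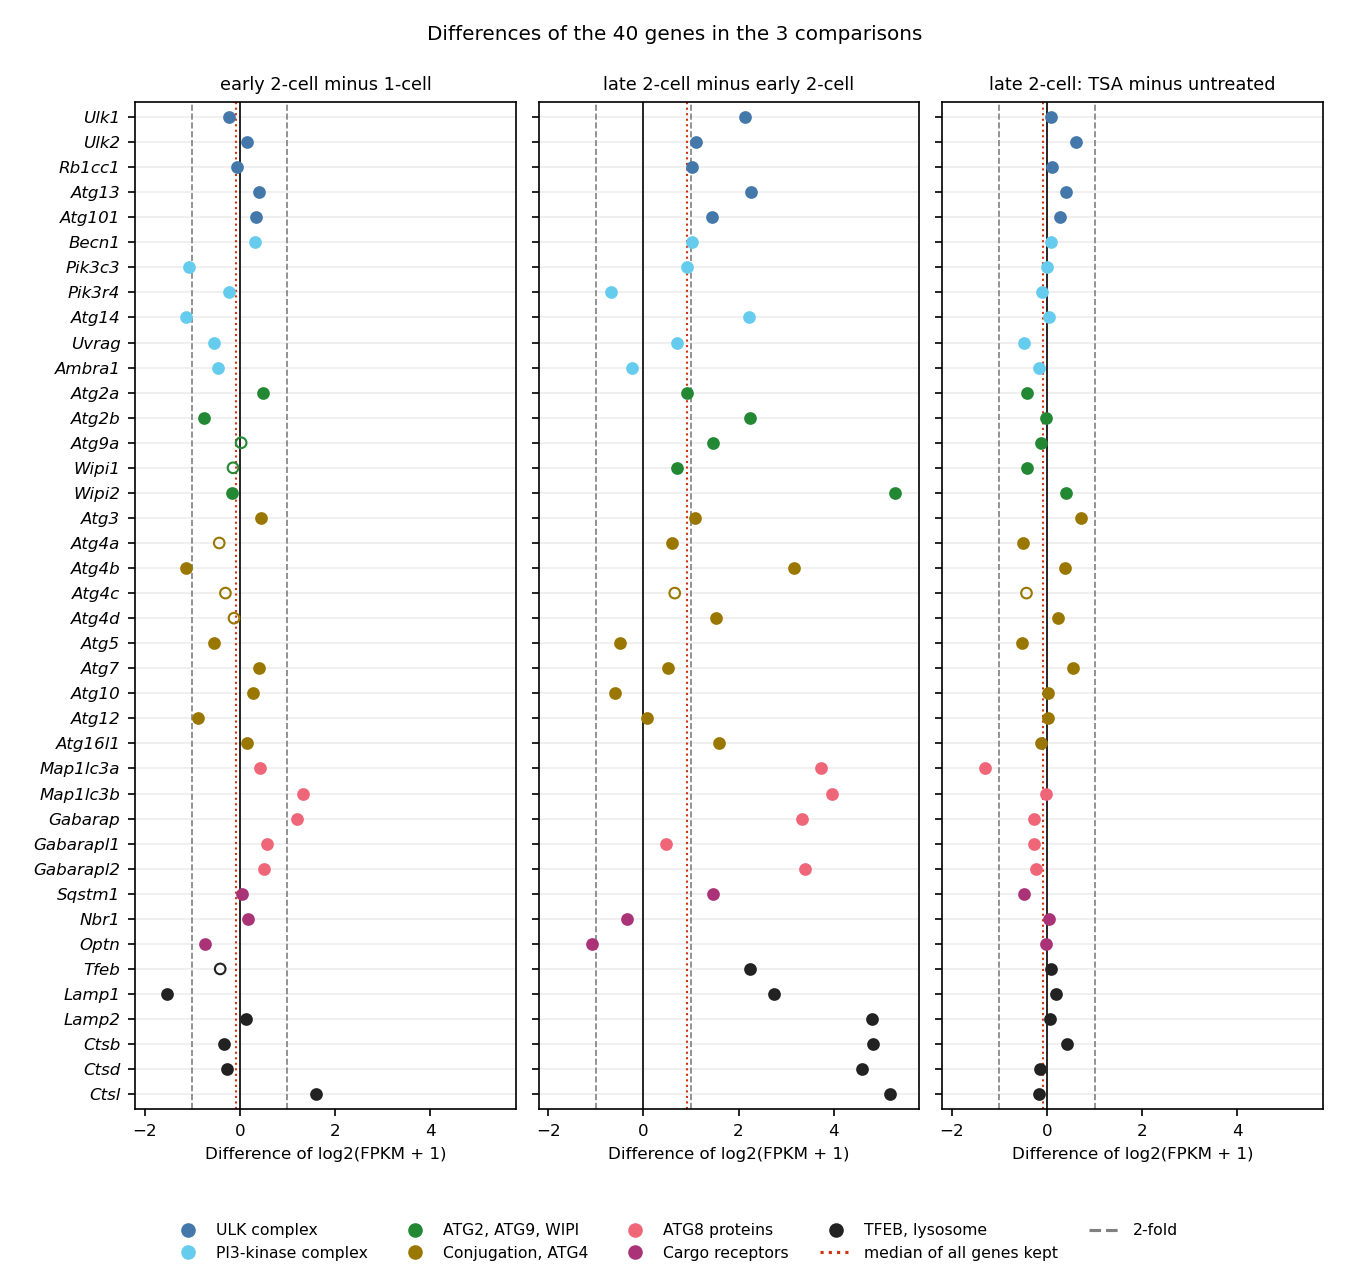
Difference in log2(FPKM + 1) of each of the 40 genes (rows, coloured by role) in the 3 comparisons (panels), 1 point per gene with no error; open points are genes under 1 FPKM in both columns, dashed lines mark 2-fold and the dotted line the median of all genes kept. In the middle panel Wipi2 stands furthest right at 5.29, followed by Ctsl, Ctsb, Lamp2 and Ctsd, and Map1lc3a is the 1 point beyond 2-fold in the TSA panel.

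The genes of the ULK complex, which starts autophagy when nutrients or energy are short, were all higher at the late 2-cell stage than at the early one as deposited. Their 5 differences ran from 1.02 to 2.27 with a median of 1.44, and after quantile normalization Ulk2 was at -0.04 while the other 4 were above 0. After median-ratio scaling 2 of the 5, Ulk1 and Atg13, were 2-fold higher, near the 36.4% of all genes kept. The median of the 5 was then 0.92, against 0.42 for all genes kept. Rb1cc1, which encodes the scaffold FIP200, was by far the most abundant of them, at 352, 338, 685 and 734 FPKM in the 1-cell, early 2-cell, late 2-cell and TSA-treated late 2-cell columns. It had rank 65 of all genes in the late column, its difference between the 2-cell stages was 1.02, and after median-ratio scaling that difference was 0.40. Rb1cc1 overlaps another annotated gene, and whether reads were counted by strand is not given in the sources used here.

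Atg13, the adaptor of the kinase, was at 2.57, 3.7, 21.7 and 28.7 FPKM, a difference of 2.27 between the 2-cell stages. Ulk1, the kinase itself, was at 3.5, 2.87, 16 and 17 FPKM, a difference of 2.14. Both had low values in the 2 earlier columns and values several times higher in the 2 late ones. Atg101, the partner that stabilizes ATG13, was at 2.34, 3.26, 10.6 and 13 FPKM with a difference of 1.44. Ulk2, the related kinase, was at 1.94, 2.27, 6.03 and 9.64 FPKM with a difference of 1.10. Of the summed FPKM of both kinases Ulk1 made up 64.3%, 55.8%, 72.7% and 63.8% in the 4 columns, so it was the larger share in each.

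The class III PI3-kinase complex makes the lipid PI3P on the growing membrane, and its genes did not move together. From the 1-cell to the early 2-cell stage 5 of the 6 genes were below 0 with a median difference of -0.49, and between the 2-cell stages 4 were above 0 with a median of 0.81. Atg14, which directs the complex to autophagy, was at 7.02, 2.68, 16.3 and 16.9 FPKM. It was lower by -1.12 at the first step and higher by 2.23 at the second. Pik3c3, the catalytic subunit VPS34, was at 5.56, 2.15, 4.94 and 4.98 FPKM, with differences of -1.06 and 0.91, so its late value was near its 1-cell value. The 2-fold count of Pik3c3 at the first step did not hold under either scaling (-0.98 after median-ratio scaling, -0.94 after quantile normalization), and the second difference was -0.23 after quantile normalization.

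Becn1, the regulatory subunit Beclin 1, was at 23.3, 29.6, 60.9 and 64.5 FPKM and higher by 1.02 between the 2-cell stages. That value was 0.41 after median-ratio scaling and 0.34 after quantile normalization. Uvrag, which takes the place of ATG14 in a complex that acts on endosomes, was at 70.7, 48.8, 80.1 and 56.7 FPKM, within 2-fold at each step and the most abundant of the group in the 3 untreated columns. Pik3r4, the scaffold subunit VPS15, was at 9.69, 8.11, 4.74 and 4.35 FPKM, and Ambra1, a positive regulator of the complex, at 3.6, 2.37, 1.84 and 1.55 FPKM. These last 2 were lower at each successive stage, in contrast to Atg14 and Becn1, yet neither was 2-fold lower in any step as deposited. After quantile normalization both were, at -1.79 for Pik3r4 and -1.28 for Ambra1 between the 2-cell stages.

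Of the genes that supply and read the growing membrane, Wipi2 had the largest difference of the 40 members between the 2-cell stages as deposited. Wipi2 binds PI3P and brings in the ATG16L1 complex that attaches ATG8 proteins. It was at 4.09, 3.54, 177 and 235 FPKM, a difference of 5.29 or a 50-fold FPKM ratio between the 2-cell stages, and it went from rank 6508 to rank 539 among all genes. Its relative Wipi1 was at 0.859, 0.685, 1.74 and 1.05 FPKM. Wipi2 made up 82.6% and 83.8% of the sum of both in the earlier columns and 99% and 99.6% in the late ones. Wipi2 lies on chromosome 5 (chr5:142629533-142669672, GRCm38.p6).

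Atg2b, which with Atg2a encodes the lipid transfer proteins that feed the membrane, was at 5.33, 2.74, 16.8 and 16.5 FPKM with a difference of 2.25 between the 2-cell stages. Atg2a was at 3, 4.63, 9.67 and 6.99 FPKM with a difference of 0.92, which was -0.18 after quantile normalization. Atg2a thus had the larger share of the pair at the early 2-cell stage (62.8%), and Atg2b in the other 3 columns. Atg9a, the scramblase that spreads lipids between both leaflets, was at 0.266, 0.289, 2.54 and 2.23 FPKM, with a difference of 1.46 that was 0.64 after quantile normalization.

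The conjugation systems were split by gene. Atg12, the ubiquitin-like protein joined to ATG5, was the most abundant of the 40 genes at the 1-cell stage with 376 FPKM, followed by 205, 217 and 221 FPKM in the other columns. Atg5, its partner, was at 180, 125, 89.1 and 61.2 FPKM and lower in each column than in the one before it. Atg16l1, which binds the ATG12 and ATG5 pair and fixes where ATG8 is attached, went the other way at 4.46, 5.08, 17.1 and 15.6 FPKM, a difference of 1.58 between the 2-cell stages that was 0.52, under 2-fold, after quantile normalization. The 3 members of that complex therefore had their highest untreated values at different stages: Atg12 and Atg5 at the 1-cell stage and Atg16l1 at the late 2-cell stage. After median-ratio scaling Atg5 was lower by -1.09 and Atg12 by -0.53 between the 2-cell stages.

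Among the enzymes, Atg7, the E1 that activates both ATG12 and ATG8, was low throughout at 0.544, 1.03, 1.92 and 3.27 FPKM. Atg3, the E2 for ATG8, was at 19, 26.3, 56.6 and 93.4 FPKM with a difference of 1.08 between the 2-cell stages that was 0.48 after median-ratio scaling. Atg10, the E2 for ATG12, was at 10.4, 12.9, 8.12 and 8.32 FPKM. The E2 for ATG8 was thus higher at the late 2-cell stage as deposited and the E2 for ATG12 was lower by -0.60, or -1.16 after median-ratio scaling.

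The ATG4 proteases trim ATG8 proteins before conjugation and release them from the membrane afterwards. Atg4b was at 8.15, 3.19, 36.4 and 47.9 FPKM, lower by -1.13 at the first step and higher by 3.16 at the second. It made up between 86.8% and 93.9% of the summed FPKM of the 4 ATG4 genes in every column. Atg4a was at 0.844, 0.372, 1.09 and 0.47 FPKM, Atg4c was under 0.7 FPKM in all columns and was kept in no comparison, and Atg4d was at 0.0894, 0, 1.89 and 2.39 FPKM. The 2-fold count of Atg4d between the 2-cell stages (1.53) rests on a late value under 2 FPKM.

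The ATG8 proteins coat the autophagosome and tether cargo receptors, and LC3 is the protein by which autophagosomes are usually followed. All 5 genes were above 0 in both stage comparisons as deposited, with median differences of 0.58 from the 1-cell to the early 2-cell stage and 3.40 between the 2-cell stages. Between the 2-cell stages Map1lc3b, Gabarap, Gabarapl2 and Map1lc3a were at least 2-fold higher, also with a pseudocount of 5 and after both scalings. The other settings could not bring them under 2-fold. The median of the 5 genes was 2.83 after median-ratio scaling and 2.59 after quantile normalization. The exception was Gabarapl1, at 0.518, 1.27, 2.16 and 1.6 FPKM with a difference of 0.47, or -0.53 after quantile normalization.

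Map1lc3b was at 11.1, 29.7, 476 and 474 FPKM, higher by 1.34 at the first step and by 3.96 at the second. In rank among all genes it went from 4191 to 2127 and then to 123. Gabarap was at 4.13, 10.8, 118 and 97.4 FPKM with differences of 1.20 and 3.33, so it and Map1lc3b were the genes of the family 2-fold higher at both steps as deposited. Gabarapl2 was at 3.89, 5.93, 72.1 and 61.3 FPKM with differences of 0.50 and 3.40. Map1lc3a was at 1.21, 1.98, 38.7 and 15.1 FPKM with differences of 0.43 and 3.74.

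Map1lc3b held the largest share of the family in every column: 53.3% at the 1-cell stage, 59.8% at the early 2-cell stage, 67.4% at the late 2-cell stage and 73% with TSA. Gabarap followed with 15% to 21.7%, then Gabarapl2 with 9.43% to 18.6%. The family's sequences are related, Map1lc3b overlaps another annotated gene, and how reads that match more than 1 place were counted is not given in the sources used here, so the split between members is uncertain to that degree. Map1lc3b lies at chr8:121590438-121598760, Gabarap at chr11:69991370-69994949 and Map1lc3a at chr2:155276364-155278073 (GRCm38.p6).

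**Figure D3:**
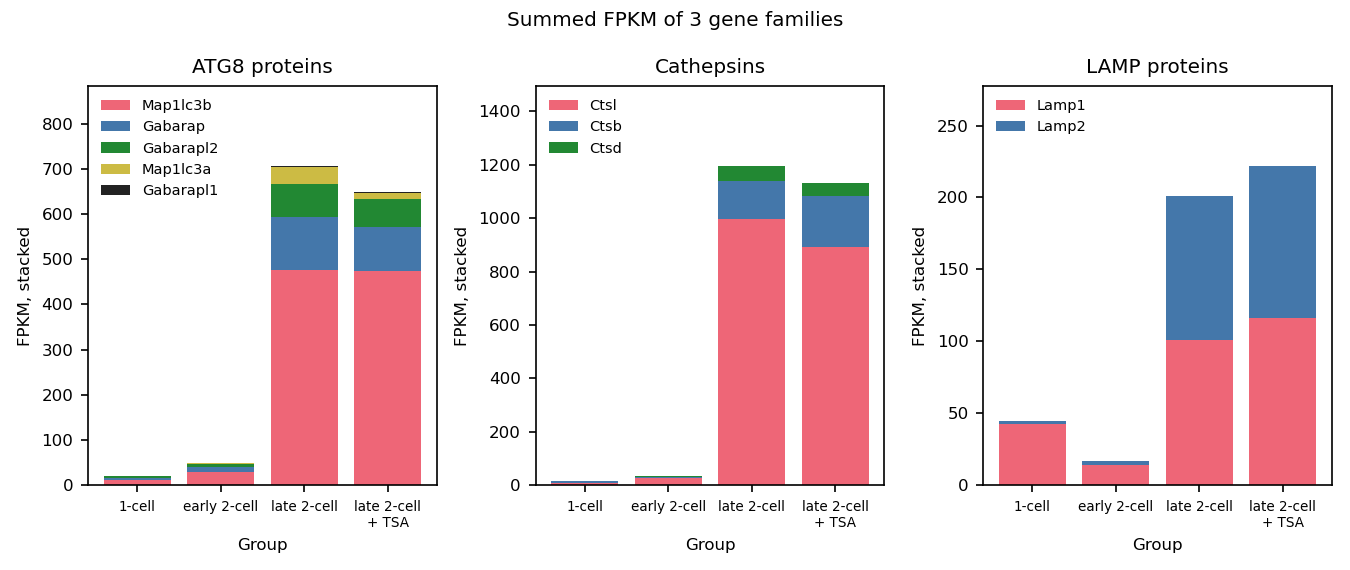
Summed FPKM of the 5 ATG8 genes, 3 cathepsins and 2 LAMP genes (panels) in the 4 groups, stacked by gene, with 1 deposited value per gene and group and no error. Map1lc3b and Ctsl make up most of their families at the late 2-cell stage, and Lamp1 alone makes up most of the LAMP sum at the 1-cell stage.

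The cargo receptors link what is to be broken down to ATG8 proteins, and between the 2-cell stages Sqstm1 was higher while Optn and Nbr1 were lower. Sqstm1, which encodes p62, was at 2.58, 2.71, 9.24 and 6.33 FPKM, a difference of 1.46 between the 2-cell stages that was 0.96 after median-ratio scaling. Optn, optineurin, was at 24.8, 14.6, 6.43 and 6.35 FPKM, lower by -0.73 at the first step and by -1.07 at the second. Nbr1, a receptor related to p62, was at 7.27, 8.29, 6.35 and 6.59 FPKM, with a difference of -0.34 at the second step. The sum of the 3 was 34.6, 25.6, 22 and 19.3 FPKM, the one role group whose sum was lower in each column than in the one before it.

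The lysosomal genes made up the group with the largest median difference between the 2-cell stages, 4.70, and all 6 were at least 2-fold higher. All 6 were also 2-fold higher after median-ratio scaling (median 4.18) and after quantile normalization (3.91). With 5 in place of 1 added before the logarithm 5 of the 6 were, the exception being Tfeb. Ctsl, the protease cathepsin L, was at 8.01, 26.4, 998 and 892 FPKM. It was higher by 1.61 at the first step and by 5.19 at the second, and went from rank 4894 to rank 2307 and then to rank 36 of all genes. Of the 40 members it was the most abundant in both late columns.

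Ctsb, cathepsin B, was at 5.28, 3.99, 141 and 190 FPKM, a difference of 4.83 between the 2-cell stages. Ctsd, cathepsin D, the aspartic protease of the lysosome, was at 1.89, 1.41, 57.2 and 51.5 FPKM, a difference of 4.60. Neither was 2-fold different at the first step, where both were lower (-0.33 and -0.26), so Ctsl was the one cathepsin of the 3 that was already higher at the early 2-cell stage. Of the summed FPKM of the 3 cathepsins Ctsl made up 52.8% at the 1-cell stage and 83% at the early 2-cell stage. Ctsl lies at chr13:64361890-64370772, Ctsb at chr14:63122462-63145923 and Ctsd at chr7:142375910-142387827.

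Lamp1 and Lamp2 encode the main glycoproteins of the lysosomal membrane and had different courses. Lamp1 was at 42.4, 14.1, 101 and 116 FPKM, lower by -1.52 at the first step and higher by 2.75 at the second. Its first difference was the most negative of the 34 members kept. Lamp2 was at 2.3, 2.63, 100 and 106 FPKM, level at the first step (0.13) and higher by 4.80 at the second. Lamp1 thus made up 94.9% of the pair at the 1-cell stage and 50.2% at the late 2-cell stage. Lamp1 lies at chr8:13159161-13175338 and Lamp2 at chrX:38399647-38456460.

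Tfeb, the transcription factor named above, was at 0.33, 0, 3.72 and 4.02 FPKM. Its difference of 2.24 between the 2-cell stages is against a gene listed at 0, so no ratio is given, and with 5 added before the logarithm it was 0.80. Of its relatives, Tfe3 was at 14.8, 9.49, 9.91 and 7.17 FPKM, Mitf was under 1 FPKM in all 4 columns, and Tfec was at 12.6, 13.7, 1.93 and 2.26 FPKM. In FPKM, Tfe3 was therefore higher than Tfeb in every column.

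Other genes of the pathway were counted from 6 lists of genes outside the set, in the comparison of the 2-cell stages. Lysosomal hydrolases other than the 3 cathepsins were at least 2-fold higher in 25 of 31 genes kept (80.6%) and lower in 0, with a median of 2.5. Among them Ctsc, cathepsin C, was at 287 against 3.84 FPKM in the late and early columns, and Ctsz, cathepsin Z, at 55.6 against 0.147 FPKM. Toward the other end, with the 5 FPKM floor used for naming, Arsb, which cleaves sulfate from glycosaminoglycans, was at 5.4 against 6.82 FPKM. Ctsh, cathepsin H, was at 61.4 against 58.9 FPKM. Under that floor, Manba, beta-mannosidase, had the lowest difference of the list (-0.97), at 1.4 against 3.7 FPKM. Galc was also lower, at 2.87 against 4.4 FPKM. Manba and Galc were named after their values were seen. Other genes of the lysosomal membrane and of enzyme sorting were higher in 15 of 19 (78.9%) and lower in 0, with a median of 1.82. The tetraspanin Cd63 was at 354 against 3.63 FPKM there and Tmem192 at 43 against 2.32 FPKM, while Laptm4b, at 27.5 against 22 FPKM, and the calcium channel Mcoln1, at 6.09 against 3.3 FPKM, differed least. After quantile normalization 20 of 30 hydrolases were higher and 4 lower, and 9 of 19 membrane and sorting genes were higher and 0 lower. Under that scaling 26.8% of all genes kept were higher and 27.9% lower. As deposited, 15 of the hydrolases and 5 of the membrane and sorting genes were kept only through the late column. Among those with at least 1 FPKM in the early column 10 of 16 and 10 of 14 were higher, against the 36.3% of all genes given above.

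The subunits of the V-ATPase, the proton pump that acidifies the lysosome, were higher in 9 of 17 genes (52.9%, near the 47.9% of all genes kept) and lower in 1, with a median of 1.38 that was 0.46 after median-ratio scaling. Of the 17, 1 was kept only through the late column. Of the other 16, 8 were higher and 1 lower, against 36.3% and 14.8% of all genes with at least 1 FPKM in the early column. After quantile normalization 6 of 18 were higher (against 26.8% of all genes kept) and 3 lower (against 27.9%), with a median of 0.14. Atp6ap2, an accessory subunit, was at 58.5 against 2.25 FPKM and Atp6v0c, of the membrane ring, at 19.7 against 3.41, whereas Atp6v1f was at 54.8 against 162 FPKM and Atp6v1h at 111 against 184. Other autophagy genes were higher in 12 of 23 (52.2%, also near 47.9%) and lower in 1, with a median of 1.38. Of the 23, 4 were kept only through the late column. Of the other 19, 8 were higher and 1 lower, against the same 36.3% and 14.8%. After quantile normalization 10 of 24 were higher and 6 lower, against the same 26.8% and 27.9%, with a median of 0.43. Wdr45, a relative of the WIPI genes, was at 26.9 against 0.35 FPKM and Tollip, a receptor, at 84.7 against 6.69, while the receptors Tax1bp1, at 97.4 against 162, and Ncoa4, at 2.95 against 6.57, had lower values that were under 2-fold on the log2(FPKM + 1) scale (-0.73 and -0.94). The 1 gene past 2-fold lower, named after its value was seen, was Calcoco1 at 0.954 against 3.32 FPKM.

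Genes of fusion between autophagosome and lysosome were higher in 10 of 23 (43.5%) and lower in 3, with a median of 0.48. Vps16 was at 21 against 1.5 FPKM and Vps33a, its partner in the HOPS tethering complex, at 8.44 against 0.211, whereas Rab2a was at 51.4 against 159 FPKM and the SNARE Stx8 at 6.85 against 20.1. The remaining lower gene, Vamp7, also a SNARE and named after its value was seen, was at 12.8 against 30.9 FPKM. Genes of mTORC1, AMPK and the TFEB family, which sense nutrients, were higher in 13 of 34 (38.2%) and lower in 3, with a median of 0.56. Rragd, a Rag GTPase, was at 29.2 against 1.63 FPKM and Fnip2, of the folliculin complex, at 22.3 against 1.07, whereas Rraga was at 5.97 against 21.4 and Tfec was lower by -2.33. Prkaa2, a catalytic subunit of AMPK that was also lower and was named after its value was seen, was at 2.65 against 10 FPKM. The fusion and nutrient-sensing lists had higher shares under the 47.9% of all genes kept. Their lower shares were 13% and 8.82%, against 10.9%. After median-ratio scaling and quantile normalization the fusion median was -0.11 and -0.19, and that of nutrient sensing -0.04 and -0.50. For all genes kept these medians were 0.42 and -0.14, so the fusion median after quantile normalization was near that of the whole table. Among fusion genes with at least 1 FPKM in the early column 3 of 16 were higher and 3 lower, and among nutrient-sensing genes 11 of 30 were higher and 3 lower. Of all genes so chosen 36.3% were higher and 14.8% lower, so the higher share of the nutrient-sensing list was near that of the whole table.

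**Figure D4:**
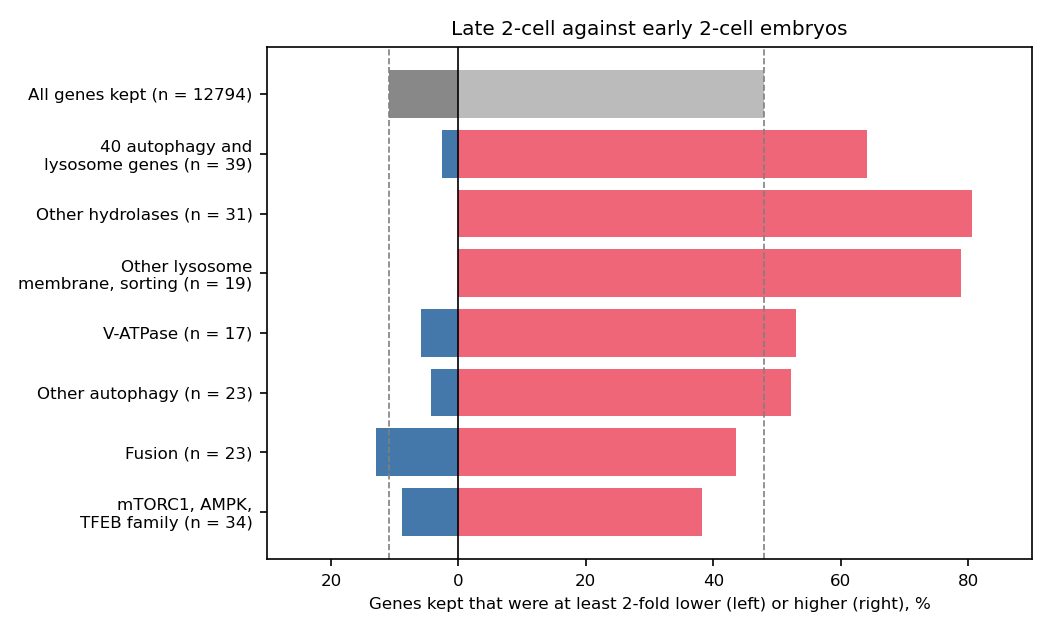
Share of genes kept (percent) that were at least 2-fold higher (right) or lower (left) in the late than in the early 2-cell column, for all genes, the 40 genes and 6 lists of other pathway genes, with the number kept beside each; dashed lines give the shares of all genes. The hydrolase and membrane lists, at 80.6% and 78.9%, lie furthest beyond the 47.9% of all genes. Of these lists, 15 of 31 and 5 of 19 genes were kept only through the late column and could not have been lower. With at least 1 FPKM in the early column 10 of 16 and 10 of 14 were higher, against 36.3% of all genes so chosen.

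From the 1-cell to the early 2-cell stage these lists held few 2-fold differences. Of 114 genes kept in the 6 lists, 4 were higher (3.51%, against 3.72% of all genes kept) and 5 lower (4.39%, against 7.12%), so both shares were under those of the whole table. Lamtor2, which anchors mTORC1 to the lysosome, was at 122 FPKM in the early column against 49.9 in the 1-cell column. The other higher genes, named after their values were seen, were Cd63 at 3.63 against 0.547 FPKM and the hydrolase genes Gla at 4.53 against 1.26 and Gm2a at 4.38 against 1.21. The lower genes were Manba, beta-mannosidase, at 3.7 against 13.9 FPKM, the segregase Vcp at 12.5 against 34.9, the SNARE Stx17 at 21.4 against 51.5, Npc1, which exports cholesterol from the lysosome, at 1.9 against 5.11, and Vmp1 at 16.2 against 34.6. Vcp, Vmp1 and Stx17 are known to act in the formation of autophagosomes and their fusion with lysosomes.

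TSA-treated and untreated late 2-cell embryos had similar values for most of the set. Of the 39 members kept, 0 were at least 2-fold higher (against 2.51% of the 12756 genes kept) and 1, Map1lc3a, was at least 2-fold lower (2.56%, against 4.08%). The median difference was 0.01 for the members and -0.08 for all genes kept, with 20 members above 0 and 19 below. Median-ratio scaling moved the median of all genes kept to 0.06 and the higher share of all 2-fold differences from 38.1% to 58.2%, and quantile normalization moved that share to 53.8%. With 1 value per group, similar values do not show that TSA has no effect on these genes.

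Map1lc3a was at 15.1 FPKM with TSA against 38.7 without, a difference of -1.30. That difference was -1.12 with a pseudocount of 5, -1.15 after median-ratio scaling and -1.40 after quantile normalization. The other settings could not bring it under 2-fold. Its share of the ATG8 sum was 2.32% with TSA and 5.48% without. The other 4 ATG8 genes were within 2-fold: Map1lc3b at 474 against 476 FPKM, Gabarap at 97.4 against 118, Gabarapl2 at 61.3 against 72.1 and Gabarapl1 at 1.6 against 2.16. All 5 were below 0 as deposited, with a median of -0.27, and after median-ratio scaling Map1lc3b was at 0.15 and the other 4 still below 0.

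All 5 genes of the ULK complex were above 0 with TSA as deposited and after both scalings, and the other settings cannot change a sign. Their median as deposited was 0.28, and Ulk2 had the largest difference of them at 0.60. None of the 5 was 2-fold higher. The largest positive difference of the 40 genes was that of Atg3, 0.71, at 93.4 against 56.6 FPKM. Atg7, the E1 that acts before it, was at 0.55, and Atg10, the E2 of the ATG12 branch, was at 0.03. On the negative side Atg5 was at -0.53, Uvrag at -0.49 and Sqstm1 at -0.48. Atg4a, at -0.51 as deposited, was 2-fold lower (-1.06) with 0.1 in place of 1 added before the logarithm, at 0.47 against 1.09 FPKM.

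The lysosomal genes had a median difference of 0.08 with TSA. Ctsb was the highest of them at 0.43 and Ctsl, still the most abundant member, the lowest at -0.16. The 6 genes summed to 1360 FPKM with TSA, against 1400 FPKM untreated. Wipi2 was at 0.41 and Atg4b at 0.38. The untreated late column is shared by this comparison and that of the 2-cell stages.

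**Figure D5:**
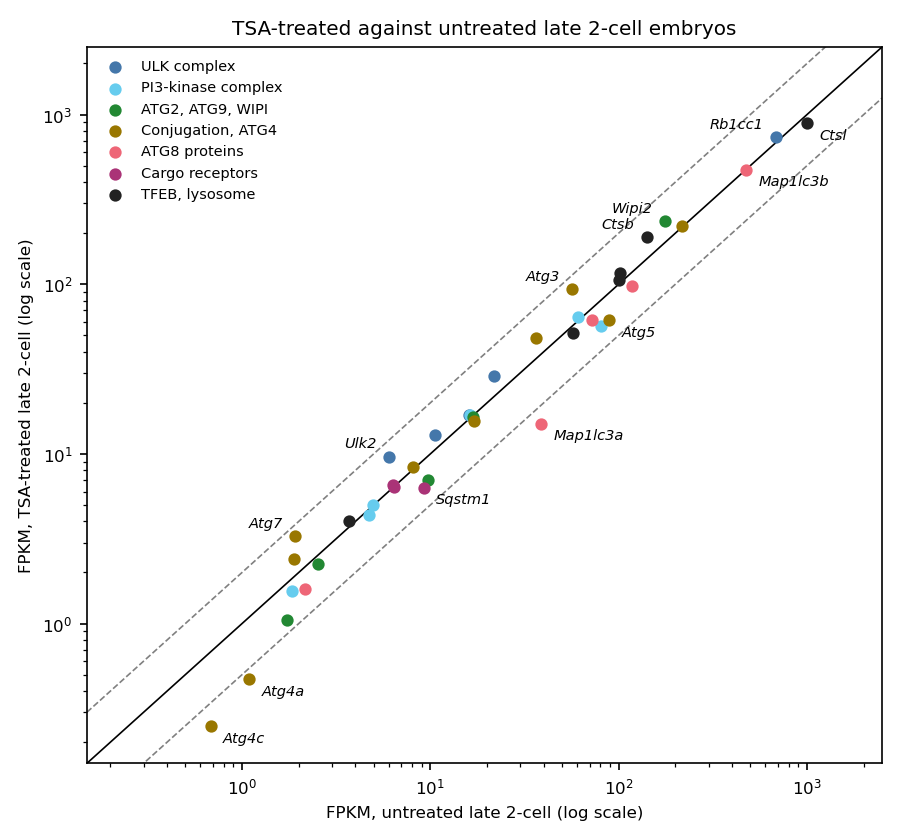
FPKM of the 40 genes in TSA-treated (vertical) against untreated (horizontal) late 2-cell embryos, both on log scales, 1 point per gene coloured by role with no error; the solid line marks equal values and dashed lines 2-fold ratios of FPKM. Map1lc3a lies below the lower dashed line, as do Atg4a and Atg4c, which were near or under 1 FPKM and were not 2-fold apart on the log2(FPKM + 1) scale.

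Of the other pathway genes with TSA, 2 were at least 2-fold higher (1.34%, against 2.51% of all genes kept) and 4 lower (2.68%, against 4.08%) among the 149 kept in the 6 lists. Both shares were under those of the whole table, and the genes are named as values only. Flcn, folliculin, which regulates the Rag GTPases, was at 10.5 FPKM with TSA against 2.74 without, a difference of 1.62. Rragd, one of those GTPases, was at 12.2 against 29.2 FPKM (-1.19), and Tmem192 at 20.8 against 43 (-1.01). The others past 2-fold, named after their values were seen, were Mlst8, a subunit of mTORC1, at 2.85 against 0.55 FPKM, Rilp, a Rab7 effector, at 1.31 against 3.71, and cathepsin F, Ctsf, listed at 0 with TSA and at 1.04 FPKM without. Under 2-fold on the log2(FPKM + 1) scale, the V-ATPase gene Tcirg1 was at 15.1 against 8.28 FPKM and Atp6v1g1 at 28.8 against 52.2, the hydrolase gene Gm2a at 145 against 83.6 and Neu1 at 7.46 against 15.4, and the mitophagy gene Park2 at 15.4 against 9.14. The list medians ran from -0.25 for fusion to 0.13 for the other autophagy genes.

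Markers of other cells were read beside these results. All 12 oocyte and early embryo genes were above 0 in every column, and their sum was 7000, 7530, 2650 and 2020 FPKM. From the 1-cell to the early 2-cell stage 11 of the 12 were nonetheless lower, with a median difference of -0.52 and 3 at least 2-fold lower (25%, against 7.12% of all genes kept), while Dppa3 was at 4830 against 3320 FPKM. Between the 2-cell stages 9 were lower, 5 of them at least 2-fold (41.7%, against 10.9%), among them Dppa3 at 1140 FPKM. Zp3, at 101 against 27.9 FPKM, and Zp1, at 40.3 against 18.6, were the 2 at least 2-fold higher (16.7%, against 47.9%). The 13 genes of the 2-cell program in the table summed to 172, 270, 528 and 887 FPKM. Much of this was Tcstv1, at 139, 203, 36.8 and 27.2 FPKM, and Gm5662, at 1.7, 26.2, 311 and 474. Usp17lb, at 0.15, 0.0896, 110 and 276 FPKM, added to the late sums. Of the genes kept, 4 of 6, 8 of 10 and 7 of 11 were above 0 in the 3 comparisons. The Zscan4 genes in the table were all lower in the early 2-cell than in the 1-cell column. Zscan4d, the highest of them, was at 2.34 against 4.06 FPKM. The 17 markers of cumulus cells, which surround the oocyte, summed to 36.4, 31.3, 78.4 and 85.1 FPKM. Between 1 and 4 of them were listed at 0 in each column, Amh in both earlier ones, and Nr5a2, which embryos express themselves, was the highest in the late ones at 52.7 and 69 FPKM. Nr5a2 was at 13.8 FPKM in the early 2-cell column and so made up most of the higher late sum. Of the 9 cumulus genes kept between the 2-cell stages 5 were at least 2-fold higher (55.6%, against 47.9% of all genes kept). They were Nr5a2, Lgals1 at 9.06 against 1.71 FPKM, Fst at 5.17 against 0.2, Amhr2 at 3.01 against 0.0201 and Fshr at 1.64 against 0.294. Fst, Amhr2 and Fshr were under 1 FPKM in the early column and so could not have been lower. The 2 lower ones (22.2%, against 10.9%) were Cyp19a1, at 0.498 against 6.26 FPKM, and Hsd3b1, at 0.275 against 3.11 FPKM. Amhr2, Fshr and Hsd3b1 were named after their values were seen. Over the 9 cumulus genes kept between the 2-cell stages the median difference was 1.03 as deposited and -0.71 after quantile normalization, and the part of such cells in the results was not tested. The number of member genes that overlap another RefSeq gene was 16 of 40, among them Rb1cc1, Becn1, Atg5, Atg12, Map1lc3b, Lamp2 and Ctsb.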

How the data were processed

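The deposited values are log2(FPKM + 1) per gene and group, per the file headers. FPKM was recovered as 2 to that value, minus 1. Per the submitters' processing notes, build mm10, HISAT2 2.1.0, StringTie 1.3.4, Cufflinks, SAMtools 1.7, Bowtie2 2.3.4.3 and deepTools 2.5.7 were used, with no step assigned to each. The sources used here give neither the annotation, nor the use of strand, nor the way libraries were combined. Gapdh, a gene outside the set, was listed at 0.0282, 0.173, 0.908 and 0.383 FPKM in the 1-cell, early 2-cell, late 2-cell and TSA-treated columns. The reason for these values was not tested. Of 6 value columns, 4 were matched to groups (the 1-cell column through its 13 h name, an inferred match), and 2 matched no RNA library and were not used.

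Genes with at least 1 FPKM in either column compared were kept, and differences of 1 or more in log2(FPKM + 1) were counted. Genes near 1 FPKM are understated on that scale. Values in all columns were printed for members 2-fold apart in any comparison and for the 2 most abundant of each role group. In each list of other genes the 2 highest and 2 lowest differences were named, at 5 FPKM or more in the higher column. The members and lists were chosen with earlier results of these data known. The counting was tested on simulated data. Python 3.11.15, pandas 2.3.3 and numpy 2.4.6 were used. Alternatives were pseudocounts of 0.1 and 5, no filter, a filter of 5 FPKM, and 2 scalings. The chromatin and the 4 Dux-injected RNA libraries were not analysed here.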

Additional observations from a re-analysis of the deposited data

How the results depend on the processing

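Each group has 1 value, so no replicate could be left out, and no paired analysis was possible because each group has 1 value. Of 201 values of genes 2-fold apart, recomputed under 6 alternatives, 171 stayed at least 2-fold apart and 29 came under it. The remaining 1 turned (Ulk2 between the 2-cell stages, -0.04 after quantile normalization). The count of 171 overstates stability, because some alternatives could not bring a value under 2-fold. A change of filter leaves a gene's value as it is, and a pseudocount of 0.1 can only widen a difference. The 29 and the 1 all came from the pseudocount of 5 and the scalings. From the 1-cell to the early 2-cell stage the members' median was 0.04 with a pseudocount of 5, -0.09 without a filter, -0.23 with a filter of 5 FPKM, 0.20 after median-ratio scaling and 0.06 after quantile normalization. There 1 member was lower both with a pseudocount of 5 (against 3.3% of all genes kept) and after quantile normalization (against 5.23%). Between the 2-cell stages the median was 0.91 with a pseudocount of 5 and 0.58 after quantile normalization. Members 2-fold lower there numbered 0 with a pseudocount of 5, 4 after median-ratio scaling (Optn, Pik3r4, Atg5 and Atg10) and 5 after quantile normalization (Optn, Pik3r4, Ambra1, Atg10 and Nbr1). The shares of all genes kept that were lower were 6.62%, 18.9% and 27.9% in the same order. With TSA the median was 0.01 with a pseudocount of 5, 0.00 without a filter, 0.03 with a filter of 5 FPKM, 0.15 after median-ratio scaling and 0.08 after quantile normalization. With a pseudocount of 0.1, 2 of 39 members were lower (Map1lc3a and Atg4a), against 8.42% of all genes kept. The counts of higher members were within 1.5 times of those reported. Why values moved was not tested beyond what each alternative does by construction. Depth is unknown and sets no limit that could be stated.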
